A study of Mus musculus with 24 samples.

Results

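Wild-type (WT) 32D cells after 6 h of actinomycin D were compared with WT 32D cells after 3 h of the drug, to see which changes of the first 3 h went on, which stopped and which turned round. The libraries were chosen by their titles alone, which gave 2 libraries at 6 h and 2 at 3 h, 4 of the 24 in the series. Of 55414 gene identifiers in the count tables, 16167 passed a filter on low counts and were tested. The 2 WT libraries at 0 h gave the early change, 3 h against 0 h, against which the window from 3 h to 6 h was read. The window of 2 clones, KO1 and KO2, was set beside it at the same hours. Both clones are titled Nat10+/- and carry the label Nat10 deficiency. Each is 1 clone, so a clone and its genotype cannot be told apart.

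32D is a mouse bone marrow line that depends on interleukin-3 (IL-3). All groups had IL-3 (10 ng/ml) and 10% serum in the medium. The labels give actinomycin D at 0.05 µg/ml for every group, also for those at 0 h, which are the start of the drug course. The sequenced molecule is labelled polyA RNA, with ERCC spike-in RNA added in equal amounts to the RNA samples. The series asked how Nat10, the enzyme that writes N4-acetylcytidine on RNA, bears on the lifetime of mRNAs. Nat10 itself (chr2:103551601-103591615, GRCm39) stood at 76.2 and 75.01 CPM at 6 h, against 87.2 and 88.9 CPM at 3 h in WT libraries, a change of -0.22 ± 0.05 on the log2 scale (SE, adjusted p = 0.00016). In the clones, as mean ± SD of 2 libraries, it stood at 63.2 ± 4.54 CPM at 6 h, against 84.5 ± 1.04 CPM at 3 h in KO1, and at 57.2 ± 4.08 CPM at 6 h, against 83.2 ± 0.484 CPM at 3 h in KO2. Its level at 3 h thus lay only slightly lower in the clones than in WT, and a gene's summed count cannot tell an intact allele from an altered one.

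Actinomycin D binds DNA and stalls RNA polymerases. At low doses it acts first on RNA polymerase I, which makes ribosomal RNA, while transcription by RNA polymerase II is reduced in part. After such a block a long-lived mRNA takes a growing share of the library and a short-lived one a shrinking share, while a gene whose transcription is resumed or induced can climb. Values are gene counts scaled to a common library size (CPM), so each change is relative to the average transcript. A gene is called here at a Benjamini-Hochberg adjusted p under 0.05 in edgeR's quasi-likelihood test over all 16167 genes, and changes are log2 values with their standard error (SE). Because the libraries are bulk, fewer cells of a type and less RNA per cell cannot be told apart.

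The 4 libraries held between 16057152 and 17142056 gene counts. The labels call the libraries biological replicates without naming separate cultures. A p-value here sets a change against the spread between the 2 libraries of a group, estimated over all 12 groups of the series together. Part of that spread may be technical. Replicates differed little, with a biological coefficient of variation of 0.0206. Genes of the mitochondrial genome took 4.34% and 4.38% of counts at 6 h, against 3.31% and 3.34% at 3 h, and the 10 most abundant genes took 8.26% and 8.29% at 6 h, against 6.98% and 6.997% at 3 h. Spike-in RNA gave 197 and 217 counts at 6 h, against 173 and 145 at 3 h. The pooled ratio per gene count, 6 h over 3 h, was 1.32 with a 95% interval of 1.13 to 1.53 for counting error only. With spike-in totals as the scale, the median change of all genes moved by -0.31, so rises smaller than that turn into falls on that scale. Although the labels call the cells lymphoblastocytes, 10 of 13 myeloid progenitor markers were at or above 1 CPM, with Kit at 0 and Cd34 and Elane below 1 CPM. Only 2 of 13 lymphoid markers, Cd79a and Cd79b, reached 1 CPM, 8 of the 13 were at 0, and their summed level was 35.4 to 35.7 CPM at 6 h, against 24.8 to 26.5 CPM at 3 h. The summed myeloid markers were at 1327 to 1350.4 CPM at 6 h, against 1917 to 1959 CPM at 3 h. Of 10 mast cell and basophil markers, 3 reached 1 CPM (Fcer1g, Cpa3 and Hdc), with a summed level of 308 to 321 CPM at 6 h, against 288 to 293 CPM at 3 h. Of 10 macrophage markers, 4 did (Adgre1, Csf1r, Cd68 and Lyz2), with 268 to 279 CPM at 6 h, against 271 to 278 CPM at 3 h. Of 9 erythroid markers, 3 did. Of 10 stromal markers, 0 reached 1 CPM.

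The window was a second round of wide change. Of the 16167 genes, 8813 (54.5%) were called, 4468 higher (27.6%) and 4345 lower (26.9%) at 6 h than at 3 h. With library totals as the scale the split was 5578 higher and 3560 lower, and with spike-in totals 1450 higher and 5816 lower. A change of at least 1.5-fold was called for 2206 genes higher (13.6%) and 1917 lower (11.9%), and one of at least 2-fold for 1152 higher (7.13%) and 738 lower (4.56%). The first 3 h moved more genes and moved them further. The 6 h and 3 h libraries did not overlap for 12259 genes (75.8%). In the first 3 h 11666 genes (72.2%) were called, and the median size of change was 0.41 on the log2 scale in the window, against 0.75 in the first 3 h. The difference between the window and the first 3 h was called for 9344 genes (57.8%), 4022 more positive (24.9%) and 5322 more negative (32.9%) in the window.

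Early changes split into those that went on, turned or stopped. Of the 5424 genes called lower at 3 h than at 0 h (33.5% of all), 2200 (40.6% of them, 13.6% of all genes) fell again, 1213 (22.4%, or 7.5% of all) turned and rose, and 1389 (25.6%, or 8.59% of all) stopped, meaning that the window was not called and differed from the early change. The other 622 (11.5%, or 3.85% of all) were not called in the window and did not differ from the early change either, so they could not be placed. Of the 6242 genes called higher at 3 h (38.6% of all), 2303 (36.9%) rose again, 1480 (23.7%) turned and fell, 1616 (25.9%) stopped and 843 (13.5%) could not be placed, which are 14.2%, 9.15%, 10% and 5.21% of all genes. Changes that started after 3 h numbered 665 lower (4.11% of all genes) and 952 higher (5.89%). With at least 1.5-fold asked of both steps, 816 falls and 973 rises went on, 355 early falls turned to rises, and 157 early rises turned to falls. A larger share of the turns to higher than of the turns to lower thus passed 1.5-fold in both steps on the CPM scale. With spike-in totals, which moved the early changes by a median of -0.50, early falls that went on numbered 3805 and those that turned 412. The early rises that went on then numbered 516 and those that turned 474. All 2200 falls that had gone on kept their class on that scale. Only 516 of the 2303 rises that had gone on, 297 of the 1213 turned falls and 283 of the 1480 turned rises kept theirs. Of the stopped genes, 919 of the 1389 early falls and 663 of the 1616 early rises kept theirs.

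Both steps share the 3 h libraries, so noise in a 3 h library feeds turns and takes from continuations. When 1 of the 3 h libraries served each step, so that no library was shared, 945 and 958 early falls turned, for the 2 ways of assigning them, and 1248 and 1284 early rises turned. Of the 1213 turned falls, 905 and 930 stayed in their class, and of the 1480 turned rises 1226 and 1254 did.

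**Figure D1:**
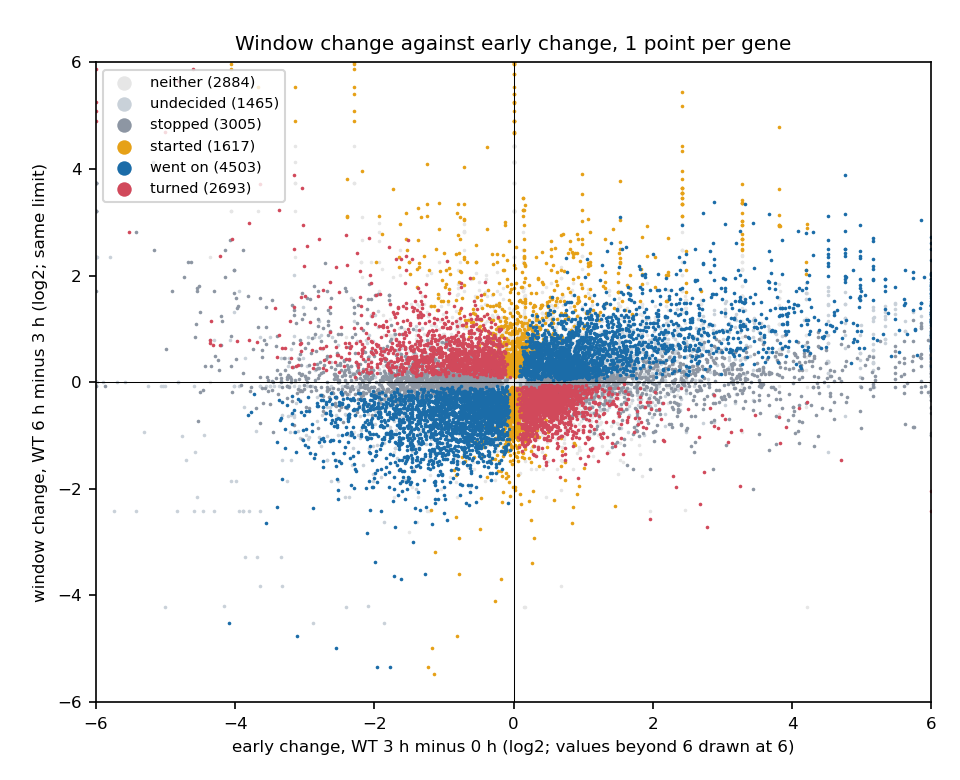
Each point is 1 of the 16167 genes, with the early change (WT 3 h minus 0 h, log2) on the horizontal axis and the window change (WT 6 h minus 3 h, log2) on the vertical axis, coloured by class. Genes that went on lie in the lower left (2200) and upper right (2303), and genes that turned in the upper left (1213) and lower right (1480).

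The plot of window against early change is a description only, since both axes share the 3 h libraries. The 8 largest falls of the window, named below, had early changes between -2.11 and -0.96 and lie in its lower left.

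The genes that fell most were long. Among genes with an established name and a mean of at least 5 CPM over the 4 libraries, the 8 largest falls all spanned 186003 bases or more, in GRCm39 as are all coordinates here unless stated. Gphn, which encodes the scaffold protein gephyrin, spans 458394 bases at chr12:78273153-78731546 and stood at 7.43 and 4.69 CPM at 6 h, against 47.7 and 48.2 CPM at 3 h. The libraries at 6 h lay far below those at 3 h, and the change was -2.99 ± 0.11 on the log2 scale (SE, adjusted p = 2.11e-45), 7.91-fold lower. Inpp4b, a phosphoinositide phosphatase gene of 785359 bases at chr8:82069185-82854543, stood at 8.91 and 7.98 CPM at 6 h, against 59.6 and 61.1 CPM at 3 h, a change of -2.84 ± 0.09 (adjusted p = 2.25e-50). Its early change had been -2.11, and its 0 h level 259.6 and 261 CPM, above both later hours. Faf1, which encodes a FAS-associated ubiquitin-binding factor, stood at 4.49 and 4.75 CPM at 6 h, against 30.9 and 30.01 CPM at 3 h, a change of -2.72 ± 0.12 (adjusted p = 1.15e-38). Enox2 (-2.66), Dym (-2.63), Supt3 (-2.58), Atrnl1 (-2.39) and Cwc27 (-2.37) made up the 8 largest falls, and all 8 had been called lower at 3 h too. Nedd4l, a ubiquitin ligase gene, and Mad1l1, a spindle checkpoint gene, also fell in both steps, by 2.53 and then 2.20 and by 2.12 and then 1.98 on the log2 scale.

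Across all genes the window change followed gene span, the distance from first to last exon. The 397 genes of 200 kb or more had a median window change of -0.64 and a median early change of -1.33, while the 4250 genes under 5 kb had medians of 0.20 and 0.62. In between, the median window change was 0.13 for 5106 genes of 5 to 20 kb, 0.00 for 3757 genes of 20 to 50 kb and -0.19 for 2657 genes of 50 to 200 kb. The fate of early falls differed along the same axis. Among the 281 genes of 200 kb or more that were called lower at 3 h, 67.3% fell again and 4.27% turned, while among the 941 such genes of 5 to 20 kb 28.8% fell again and 32.4% turned. Under 5 kb, 14.8% of 649 early falls went on and 15.4% turned. By number, 96 of these 649 went on, 100 turned and 184 stopped, against 189, 12 and 63 of the 281 at 200 kb or more. The rest could not be placed, a larger share under 5 kb, so the shares also reflect how often a gene could be placed. Transcript length ran alongside, since genes with 8 kb or more of exons had a median window change of -0.11, and those under 1 kb one of 0.22. These medians are descriptions with no test, as genes are not replicates, and how far span, exonic length and level each bear on them was not tested.

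**Figure D2:**
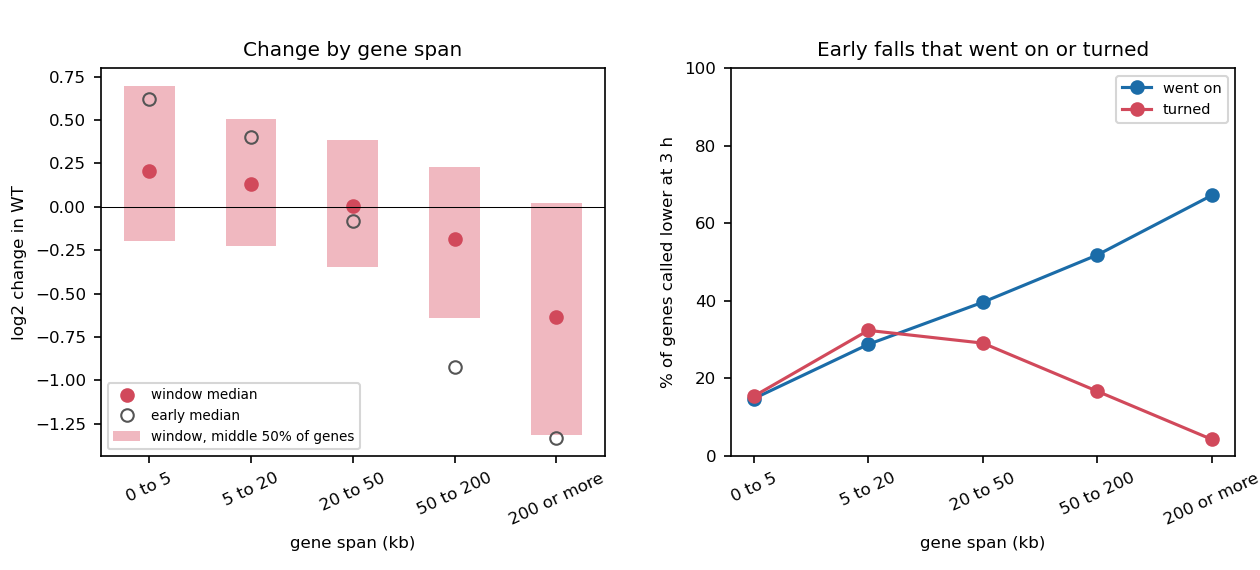
Left, the median log2 change in WT by gene span in kb, with filled points for the window (6 h minus 3 h), bars for the middle 50% of genes and open points for the early change (3 h minus 0 h); right, the percentage of genes called lower at 3 h that went on or turned. The window median goes from 0.20 under 5 kb to -0.64 at 200 kb or more, and the share of early falls that went on from 14.8% to 67.3%.

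Stopped genes had a large early change and a window change that was not called. Notch2, a receptor gene, stood at 8.14 and 6.95 CPM at 6 h, against 7.52 and 6.61 CPM at 3 h, while its 0 h level had been 89.7 and 86.95 CPM. The window change was 0.09 ± 0.14 (adjusted p = 0.605), with a 95% interval of -0.19 to 0.38, and the 6 h and 3 h libraries overlapped. Aff1, a subunit gene of the super elongation complex, stood at 30.7 and 31.1 CPM at 6 h, against 32.1 and 29.4 CPM at 3 h, with a window change of 0.01 ± 0.07 (adjusted p = 0.939) after an early one of -3.46. With spike-in totals pooled per group, the window change of Aff1 was -0.29 and was called (adjusted p = 0.000205). Etv6, a blood cell repressor, stood at 5.77 and 6.76 CPM at 6 h, against 6.16 and 6.16 CPM at 3 h, with a window change of 0.03, after -3.34 in the first 3 h. On the side of early rises, Tspoap1 stood at 164 and 158 CPM at 6 h, against 169 and 171 CPM at 3 h, where its 0 h level had been 2.60 and 3.01 CPM, and its window change of -0.08 had a 95% interval of -0.15 to -0.00 (adjusted p = 0.065). AA914427 and Olfr1250, a transcript and an olfactory receptor gene, had window changes of 0.05 and 0.09 after early rises of 5.19 and 4.03.

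The largest rises, under the same rule, were of genes that had at most 2.60 CPM in each 0 h library. Nectin4, an adhesion molecule gene of 18500 bases at chr1:171197667-171216166, went through 0.592 and 0.296 CPM at 0 h, 6.57 and 6.48 at 3 h, 40.7 and 42.3 at 6 h and 82.7 and 87.4 at 9 h. Every library lay above both libraries of the hour before, and the window change was 2.67 ± 0.10 on the log2 scale (SE, adjusted p = 1.24e-45). Hist2h4, a histone H4 gene, stood at 11.1 and 11.03 CPM at 6 h, against 1.64 and 0.962 CPM at 3 h, a change of 3.09 ± 0.22 (adjusted p = 7.27e-24), and it had also risen early. Gbp3, a guanylate-binding protein gene of the interferon response, stood at 12.05 and 11.6 CPM at 6 h, against 1.92 and 2.18 CPM at 3 h, a change of 2.52 ± 0.18 (adjusted p = 7.34e-24), with an early change of 0.59 that was not called. Ptges, the enzyme that makes prostaglandin E, stood at 13.97 and 13.5 CPM at 6 h, against 3.28 and 2.82 CPM at 3 h, a change of 2.17 ± 0.17 (adjusted p = 5.99e-21). Gpr55 (2.20), Tsnaxip1 (2.33), Cdnf (2.14) and Hist1h2bp (2.11) completed the 8 largest rises. All 8 had fewer than 7 CPM in each 3 h library. Fgfbp3 rose as well (1.97), after 0 and 0.0591 CPM at 0 h.

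Early falls that turned included a set of fast-responding regulators. Klf6, a zinc-finger transcription factor at chr13:5911481-5920393, went through 320.1 and 325 CPM at 0 h, 39.8 and 41.1 at 3 h, 127 and 123 at 6 h and 204 and 202 at 9 h. At 6 h it stood 3.09-fold above 3 h, a change of 1.63 ± 0.05 on the log2 scale (SE, adjusted p = 7.5e-54), after an early change of -3.00 ± 0.04 (adjusted p = 3.46e-84). Egr1, an immediate early transcription factor named here after its values were seen, stood at 11.1 and 10.4 CPM at 6 h, against 4.58 and 3.33 CPM at 3 h, a change of 1.45 ± 0.18 (adjusted p = 6.04e-12), with the 3 h libraries below those at 0 h. Of 34 tested short-lived regulatory mRNAs, 28 rose and 3 fell in the window, with a median of 0.64, against 0.06 for all genes. With spike-in totals the median was 0.33, and 16 rose and 3 fell. Of the 28 rises, 9 turned from an early fall, 16 went on from an early rise and 3 started in the window. Atf3, a stress-induced factor, stood at 1.92 and 2.07 CPM at 6 h, against 0.479 and 0.321 CPM at 3 h, a change of 2.31 ± 0.50 (adjusted p = 3.53e-05). Gadd45b, a growth arrest gene, stood at 150.1 and 154 CPM at 6 h, against 70.9 and 63.6 CPM at 3 h, where both 0 h libraries had been under 4 CPM. The 3 that fell were Myc, Mycn and Jund. Myc, the growth-promoting transcription factor, went through 343 and 353 CPM at 0 h, 58.1 and 55.1 at 3 h, 28.01 and 25.3 at 6 h and 18.2 and 19.8 at 9 h, and its window change was -1.09 ± 0.06 (adjusted p = 1.31e-29). Mycn stood at 61.9 and 59.3 CPM at 6 h, against 97.2 and 103 CPM at 3 h, a change of -0.72 ± 0.05 (adjusted p = 1.37e-25). Outside the list, Amn1 (1.52) and the mitotic kinesin gene Kif18a (1.42) were, after Klf6, the turned falls with the largest smaller step once established genes averaging under 5 CPM were left aside.

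Most NF-kB genes rose in the window, 9 of 16 of them after an early fall. NF-kB proteins are transcription factors held in the cytoplasm by inhibitors whose genes they activate in turn, a negative feedback loop. Of 16 such genes listed and tested, 13 rose and 2 fell in the window, with a median of 0.55. In the first 3 h, 11 had been lower and 1 higher, with a median of -0.92, and 9 turned. The median stayed positive with spike-in totals, at 0.24, where 8 rose and 2 fell. Rel, the c-Rel subunit, went through 66.1 and 62.6 CPM at 0 h, 19.9 and 19.2 at 3 h, 47.8 and 46.98 at 6 h and 59.8 and 57.9 at 9 h. The 6 h libraries lay well above both 3 h libraries and below both 0 h libraries, with a window change of 1.28 ± 0.08 on the log2 scale (SE, adjusted p = 1.11e-28). Relb, another subunit, stood at 25.6 and 28.03 CPM at 6 h, against 9.92 and 11.4 CPM at 3 h, a change of 1.33 ± 0.10 (adjusted p = 2.26e-21). The 2 members that fell were Nfkb1, the p105 subunit and a gene of 106893 bases, at -0.48 ± 0.05 (adjusted p = 2.23e-16), and the inhibitor Tnip1 at -0.33 ± 0.07 (adjusted p = 4.17e-05). Named after their values were seen, the subunit gene Nfkb2 stood at 227 and 234 CPM at 6 h, against 116 and 114 CPM at 3 h, the inhibitor Nfkbia at 127 and 119 CPM at 6 h, against 88.7 and 88.5 CPM at 3 h, and Tnfaip3, which encodes the ubiquitin-editing inhibitor A20, at 68.1 and 65.4 CPM at 6 h, against 29.2 and 27.6 CPM at 3 h. Their window changes were 1.003 ± 0.03 (adjusted p = 1.23e-48), 0.47 ± 0.04 (adjusted p = 1.67e-17) and 1.23 ± 0.07 (adjusted p = 1.1e-30).

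NF-kB dimers bind a short sequence that holds letters such as GGNNTTNCC, where N is any base. The 250 bases before the start of each gene were searched for it on both strands, in the RefSeq promoter table of build GRCm38.p6, which held a window for 10543 of the tested genes. The letters were present for 1816 of them, 17.2%, and for 8 of the 13 NF-kB genes that had a window, namely Bcl3, Cyld, Nfkb2, Nfkbia, Nfkbid, Rel, Tnfaip3 and Tnip1. Of these 8, Tnip1 fell from 3 h to 6 h and the other 7 rose. A match is a description of the sequence and says nothing of binding. The windows of 3 genes whose values are given above follow, 5′ to 3′, with the matches in capitals.
Rel promoter, GRCm38.p6 chr11:23770970-23771219, minus strand: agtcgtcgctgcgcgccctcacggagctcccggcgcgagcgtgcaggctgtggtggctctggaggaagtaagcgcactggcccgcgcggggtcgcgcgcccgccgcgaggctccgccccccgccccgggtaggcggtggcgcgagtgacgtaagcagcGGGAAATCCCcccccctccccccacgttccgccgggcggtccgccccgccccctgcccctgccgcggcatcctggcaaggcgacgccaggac
Nfkb2 promoter, GRCm38.p6 chr19:46304487-46304736, plus strand: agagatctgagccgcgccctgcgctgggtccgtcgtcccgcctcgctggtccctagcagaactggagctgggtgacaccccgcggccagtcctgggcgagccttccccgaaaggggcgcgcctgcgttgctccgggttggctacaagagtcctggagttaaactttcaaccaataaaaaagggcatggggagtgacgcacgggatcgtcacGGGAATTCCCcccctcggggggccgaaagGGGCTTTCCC
Nfkbia promoter, GRCm38.p6 chr12:55492648-55492897, minus strand: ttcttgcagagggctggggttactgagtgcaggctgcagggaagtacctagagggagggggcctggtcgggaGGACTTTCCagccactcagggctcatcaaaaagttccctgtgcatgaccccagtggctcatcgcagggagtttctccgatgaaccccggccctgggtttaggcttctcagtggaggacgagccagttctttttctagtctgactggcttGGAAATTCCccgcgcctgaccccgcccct

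Feedback inhibitors of MAP kinase signalling rose as well. Of 13 tested, 9 rose and 0 fell, with a window median of 0.45. With spike-in totals the median was 0.14, and 3 rose and 2 fell. In the first 3 h, 7 had been lower and 2 higher. Dusp6, a phosphatase that removes phosphate from ERK, went through 128 and 133 CPM at 0 h, 87.4 and 86.1 at 3 h, 177 and 187 at 6 h and 155 and 168 at 9 h. The window change was 1.07 ± 0.04 on the log2 scale (SE, adjusted p = 2.34e-43), and both 6 h libraries lay above both 0 h libraries. Dusp10, which acts on p38 and JNK, stood at 4.94 and 5.30 CPM at 6 h, against 2.05 and 2.18 CPM at 3 h, a change of 1.27 ± 0.23 (adjusted p = 7.11e-07). Trib1, a pseudokinase gene from the IL-3 list described further on, was not called early and stood at 22.4 and 16.5 CPM at 6 h, against 7.52 and 6.09 CPM at 3 h, a change of 1.51 ± 0.14 (adjusted p = 2.16e-17).

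**Figure D3:**
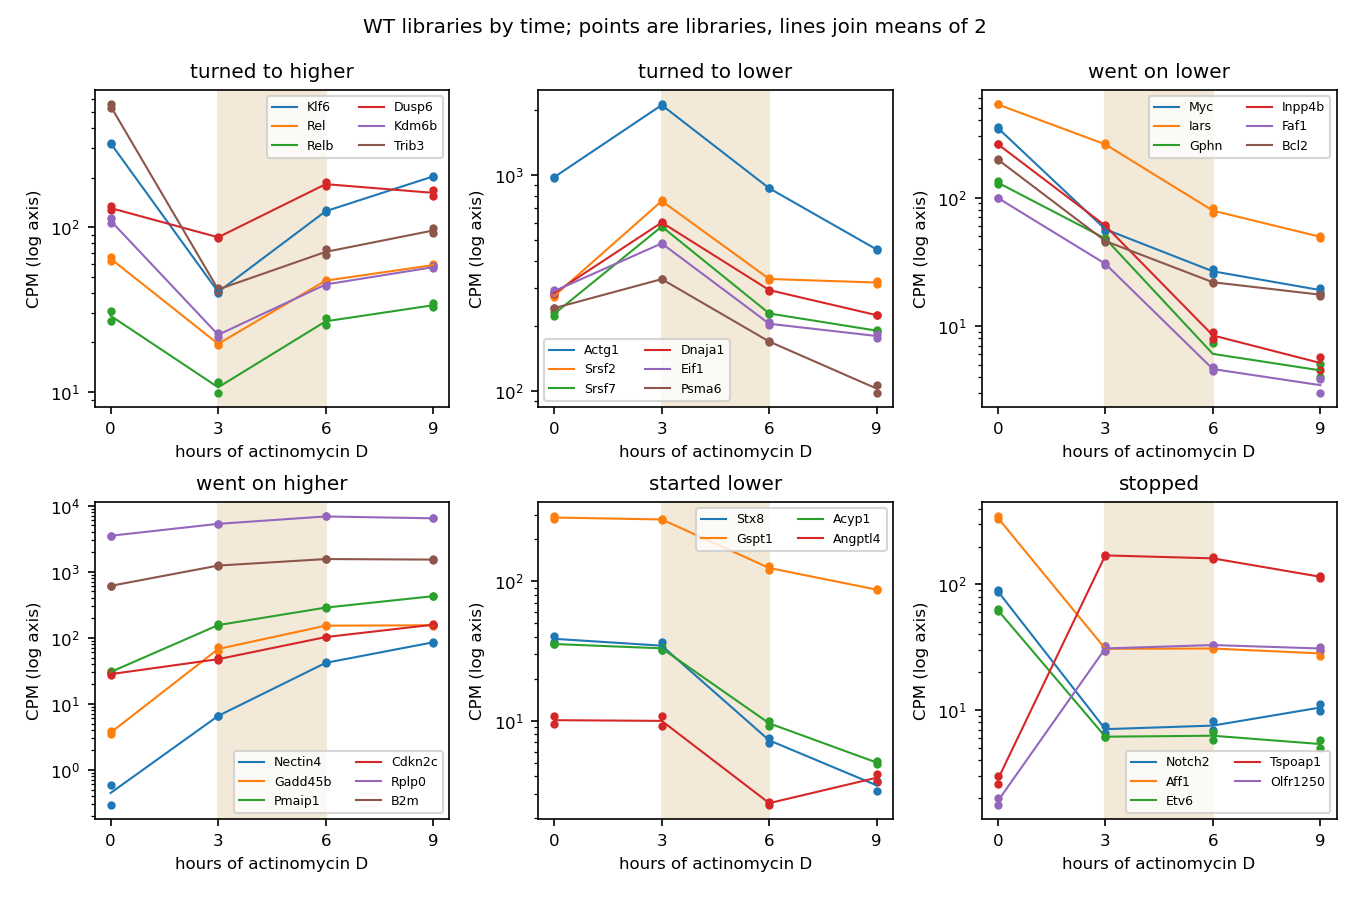
CPM on a log axis against hours of actinomycin D in WT libraries, with the 3 h to 6 h window shaded, points for single libraries and lines through the mean of 2, in panels by class. Klf6 and Rel dip at 3 h and climb by 6 h, Actg1, Srsf2 and Eif1 peak at 3 h, and Gphn and Inpp4b fall through both steps.

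The courses of these genes also show the mirror image, early rises that turned. SR proteins are splicing factors rich in serine and arginine, and 14 of 21 tested were called higher at 3 h than at 0 h. In the window 14 fell and 5 rose, with a median of -0.25, and 10 turned from higher to lower. Srsf2 went through 273 and 277 CPM at 0 h, 752 and 760.4 at 3 h, 328 and 332 at 6 h and 311 and 324 at 9 h, so that it stood well above its start at 3 h and close to it at 6 h. Its window change was -1.20 ± 0.02 on the log2 scale (SE, adjusted p = 1.37e-68). Srsf7 did likewise, at 229.7 and 227 CPM at 6 h, against 572 and 580.5 CPM at 3 h, a change of -1.33 ± 0.03 (adjusted p = 1.73e-69) after an early one of 1.34. Srsf3 stood at 72.04 and 76.4 CPM at 6 h, against 360.5 and 353 CPM at 3 h, 4.80-fold lower, a change of -2.26 ± 0.04 (adjusted p = 3.35e-78) after an early one of only -0.08. Tra2b, a related splicing regulator, stood at 159 and 159 CPM at 6 h, against 412 and 405 CPM at 3 h, a change of -1.36 ± 0.03 (adjusted p = 2.77e-64). In the other direction, Srsf12 stood at 3.85 and 2.25 CPM at 6 h, against 0.137 and 0.257 CPM at 3 h (3.89 ± 0.54, adjusted p = 5.56e-10), a gene with 0 CPM in both 0 h libraries, and Clk3, a kinase that phosphorylates SR proteins, rose by 0.35 ± 0.05 (adjusted p = 3.18e-10). With spike-in totals Clk3 was not called (0.04, adjusted p = 0.827), and of the 21 tested 1 rose and 15 fell.

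Most proteasome subunits and translation factors fell, many of them after an early rise. Proteasome subunits, of which 28 of 32 had been called higher at 3 h, numbered 29 lower and 1 higher at 6 h, with 25 turned, a window median of -0.43 and an early median of 0.53. Psmd14, the deubiquitinase of the proteasome lid, stood at 64.2 and 66.1 CPM at 6 h, against 183 and 188 CPM at 3 h, a change of -1.51 ± 0.04 on the log2 scale (SE, adjusted p = 2.41e-54). Psma6, a subunit of the core, stood at 168 and 171 CPM at 6 h, against 329 and 329 CPM at 3 h, a change of -0.96 ± 0.03 (adjusted p = 7.85e-49), and its 3 h libraries were the highest of the course. The single rise was Psmd2, by 0.11 ± 0.02 (adjusted p = 1.01e-05), and it became a fall of 0.20 with spike-in totals. Translation factors followed, with 37 of 45 lower, 5 higher and 25 turned. Eif1, which guides start codon choice, went through 295 and 285 CPM at 0 h, 484 and 479 at 3 h, 208 and 201 at 6 h and 183 and 176 at 9 h, a window change of -1.23 ± 0.03 (adjusted p = 6.02e-65). Gspt1, the termination factor eRF3, was not called early and stood at 119.9 and 129.5 CPM at 6 h, against 279 and 277 CPM at 3 h, a change of -1.16 ± 0.04 (adjusted p = 1.17e-52). Of the 5 that rose, Eif2b2 stood at 73.6 and 79.1 CPM at 6 h, against 60.9 and 56.6 CPM at 3 h (0.38 ± 0.06, adjusted p = 4.04e-08), and Eif5 changed by 0.16, or by -0.15 with spike-in totals. On that scale Eif2b2 was not called either (0.07, adjusted p = 0.682), and 0 translation factors rose and 41 fell.

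Most chaperones fell as well. Of 23 heat-shock chaperones and cofactors, among them the mitochondrial Hspa9, Hspd1 and Hspe1, 18 fell and 3 rose, with a window median of -0.36 after 0.84 in the first 3 h, and 13 turned from higher to lower. Dnaja1, a cofactor of HSP70, stood at 295 and 291 CPM at 6 h, against 599 and 605 CPM at 3 h, a change of -1.04 ± 0.03 (adjusted p = 6.69e-62), and Hspa9, the HSP70 of mitochondria, stood at 619.5 and 615 CPM at 6 h, against 1162 and 1171 CPM at 3 h, a change of -0.92 ± 0.02 (adjusted p = 6.61e-68). The stress-inducible Hspa1a stood at 1.09 and 0.97497 CPM at 6 h, against 0.274 and 0.321 CPM at 3 h and Hspa1b at 0.513 and 0.792 CPM at 6 h, against 0.137 and 0.0641 CPM at 3 h, both called higher (adjusted p = 0.0184 and 0.00826), from 9 and 3 counts in all at 3 h. Both calls were lost when single libraries were left out, at adjusted p values up to 0.106 and 0.0972. Of 24 chaperones and folding enzymes of the endoplasmic reticulum, 18 fell and 0 rose, with a window median of -0.35. Xbp1, the transcription factor of the unfolded protein response, stood at 83.5 and 83.9 CPM at 6 h, against 166 and 158 CPM at 3 h (-0.95 ± 0.04, adjusted p = 4.37e-41), and Selenos at 67.4 and 60.7 CPM at 6 h, against 120.3 and 127 CPM at 3 h (-0.95 ± 0.05, adjusted p = 5.97e-34). Among 41 identifiers of long-lived housekeeping mRNAs, of which 40 had risen early, 19 rose again and 13 turned, with a median of 0.06 that became -0.24 with spike-in totals, where 0 rose and 18 fell. Actg1, which encodes gamma-actin, went through 971 and 979 CPM at 0 h, 2114 and 2085 at 3 h, 865 and 867 at 6 h and 454 and 448 at 9 h, a window change of -1.28 ± 0.02 (adjusted p = 5.26e-83). Tubb5, a tubulin gene, stood at 528 and 527 CPM at 6 h, against 1113 and 1132 CPM at 3 h (-1.09 ± 0.02, adjusted p = 2.43e-71), while B2m, which encodes beta-2-microglobulin, rose by 0.33 and the lysosomal gene Laptm5 by 0.34.

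Aminoacyl-tRNA synthetases, which load amino acids onto tRNAs, were the list with the lowest median. All 19 cytosolic synthetases tested fell in the window, with a median of -0.74, where 12 had been lower and 6 higher at 3 h. Thus 12 went on, 6 turned and 1 started. Farsb, the beta chain of the phenylalanine enzyme, stood at 23.7 and 20.9 CPM at 6 h, against 86.6 and 82.8 CPM at 3 h, a change of -1.93 ± 0.07 on the log2 scale (SE, adjusted p = 4.01e-48). Iars, the isoleucine enzyme, went through 531 and 530.1 CPM at 0 h, 264 and 255 at 3 h, 75.6 and 82.4 at 6 h and 50.1 and 48.8 at 9 h, a window change of -1.71 ± 0.04 (adjusted p = 3.33e-66). Its libraries were ordered by time with no overlap up to 9 h. Gars, the glycine enzyme, named after its values were seen, stood at 109.9 and 112 CPM at 6 h, against 248 and 248 CPM at 3 h, a change of -1.16 ± 0.04 (adjusted p = 1.14e-51).

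Genes of the integrated stress response, which ATF4 drives when amino acids are short, divided in the window on the CPM scale. With spike-in totals 15 fell and 1 rose, with a median of -0.55. On the CPM scale 13 of 24 tested fell and 9 rose, with a median of -0.25, and of the 18 that had fallen early 9 went on and 8 turned. Those that went on lower included enzymes and transporters of amino acids. Asns, asparagine synthetase, stood at 94.7 and 91.95 CPM at 6 h, against 209.7 and 207 CPM at 3 h (-1.16 ± 0.04, adjusted p = 9.89e-50), and Slc7a11, the cystine transporter, at 14.2 and 12.7 CPM at 6 h, against 29.8 and 32 CPM at 3 h (-1.20 ± 0.10, adjusted p = 5.72e-21). Those that turned included regulators. Trib3, a pseudokinase that restrains ATF4, went through 555 and 528 CPM at 0 h, 41.04 and 42.8 at 3 h, 74.1 and 67.5 at 6 h and 98.5 and 92.4 at 9 h, a window change of 0.75 ± 0.05 (adjusted p = 3.81e-24), and both 6 h libraries lay far below both 0 h libraries. Nupr1, a stress-induced chromatin protein, stood at 2.76 and 3.66 CPM at 6 h, against 1.78 and 2.05 CPM at 3 h (0.74 ± 0.24, adjusted p = 0.00586), and the call was lost without WT 3 h library 1 (adjusted p = 0.0634) and without WT 6 h library 2 (adjusted p = 0.161). Atf4 itself, named after its values were seen, stood at 129.7 and 128 CPM at 6 h, against 115 and 113 CPM at 3 h, a change of 0.17 ± 0.04 (adjusted p = 2.73e-05) that became -0.13 with spike-in totals. Ddit4, an inhibitor of mTORC1, started higher by 0.22, or by -0.08 with spike-in totals.

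ATF4 pairs with C/EBP proteins on a composite sequence close to TGATGNAA. In the same 250-base windows these letters, on either strand, were present for 256 of 10543 genes, 2.43%. They were present for 3 of 12 synthetases with a window (Aars, Gars and Tars) and 4 of 21 stress response genes (Asns, Nupr1, Pck2 and Slc7a11). Of these 7 genes, Nupr1 rose and the other 6 fell. Other motifs searched were also present more often in some lists than in all windows. The E-box CACGTG was in 3 of 12 synthetase windows (Aars, Farsb and Iars), against 9.31% of all, and the AP-1 letters TGANTCA in 3 of 13 NF-kB windows, against 5.68%. In mitotic genes, the CCAAT box was in 28 of 37 windows, against 39.8%, and the CHR letters TTTGAA in 12 of 37, against 13.3%. The windows of Asns and Gars, both lower at 6 h, follow with the match in capitals, which in Gars lies on the opposite strand.
Asns promoter, GRCm38.p6 chr6:7693210-7693459, minus strand: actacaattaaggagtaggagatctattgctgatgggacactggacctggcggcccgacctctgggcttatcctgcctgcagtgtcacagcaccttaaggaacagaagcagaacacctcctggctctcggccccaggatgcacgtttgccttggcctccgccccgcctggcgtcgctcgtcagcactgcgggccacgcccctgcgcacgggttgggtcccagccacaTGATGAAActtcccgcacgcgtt
Gars promoter, GRCm38.p6 chr6:55037751-55038000, plus strand: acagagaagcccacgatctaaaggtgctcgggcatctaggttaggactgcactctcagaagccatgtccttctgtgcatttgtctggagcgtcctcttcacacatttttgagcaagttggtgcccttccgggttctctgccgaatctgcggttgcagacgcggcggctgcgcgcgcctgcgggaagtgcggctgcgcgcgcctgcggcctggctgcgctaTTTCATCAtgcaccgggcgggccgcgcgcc

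Genes for making ribosomes fell, while most genes for ribosomal proteins rose or were not called. Of 84 factors that process ribosomal RNA and assemble ribosomes, 69 fell and 6 rose, with a window median of -0.40 after 0.15 in the first 3 h. Of these, 37 turned from higher to lower and 25 went on lower. Nop58, a core protein of box C/D ribonucleoproteins, stood at 89.99 and 81.5 CPM at 6 h, against 229 and 229 CPM at 3 h (-1.42 ± 0.04, adjusted p = 2.47e-55), and Dkc1, the pseudouridine synthase of box H/ACA particles, at 98.96 and 96.4 CPM at 6 h, against 228 and 232 CPM at 3 h (-1.24 ± 0.04, adjusted p = 2.63e-53). Both fell by more than 2-fold with no overlap between hours. Utp3 rose, at 159 and 160.3 CPM at 6 h, against 110.1 and 113 CPM at 3 h (0.52 ± 0.04, adjusted p = 4.78e-23), and Ddx52 by 0.35. With spike-in totals neither was called, at changes of 0.21 and 0.04 (adjusted p = 0.163 and 0.816), and 0 assembly factors rose and 76 fell. Of 12 genes of the RNA polymerase I machinery, 6 fell and 2 rose. The subunit Polr1b stood at 21.7 and 21.4 CPM at 6 h, against 44.5 and 45.3 CPM at 3 h (-1.06 ± 0.08, adjusted p = 5.17e-22), the activator Ubtf at 174 and 165 CPM at 6 h, against 286 and 282 CPM at 3 h (-0.74 ± 0.03, adjusted p = 6.21e-41) and the termination factor Ttf1 at 35.4 and 37.4 CPM at 6 h, against 21.5 and 20.01 CPM at 3 h (0.81 ± 0.08, adjusted p = 5.86e-15). The initiation factor Rrn3 changed by 0.12, or by -0.19 with spike-in totals. Of 15 host transcripts of small nucleolar RNAs, 5 fell and 3 rose. Gas5 fell by 0.41 and Snhg6 by 0.63 on the log2 scale, and Snhg20 (0.15) and Dancr (0.26) changed sign with spike-in totals, to -0.16 and -0.05. Without single libraries the calls of Dancr, Snhg20 and Rrn3 were lost, at adjusted p values up to 0.484, 0.232 and 0.0883.

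Cytosolic ribosomal protein genes had nearly all gained share by 3 h, 78 of 79. At 6 h 51 rose again, 8 fell and 20 were not called, with a median of 0.11. With spike-in totals the median was -0.21, and 0 rose and 27 fell. Rplp0, a protein of the ribosomal stalk, stood at 6850.1 and 6853 CPM at 6 h, against 5243 and 5353 CPM at 3 h (0.37 ± 0.01, adjusted p = 3.81e-47), and Rpl7a at 1666 and 1651 CPM at 6 h, against 1899 and 1905 CPM at 3 h (-0.20 ± 0.02, adjusted p = 2.59e-20). Rps27 changed by 0.26, or by -0.04 with spike-in totals, and Rpl5 by -0.15. Mitochondrial ribosomal proteins, encoded in the nucleus, numbered 48 lower and 11 higher of 77, with 30 turned from higher to lower and a median of -0.29. With spike-in totals they numbered 60 lower and 0 higher. Mrps28 stood at 11.7 and 13.1 CPM at 6 h, against 29.9 and 29.6 CPM at 3 h (-1.26 ± 0.10, adjusted p = 4.95e-20), Mrps18c changed by -0.87, and Mrpl10 and Mrps17 rose by 0.51 and 0.41. Of 75 nuclear genes of the respiratory chain, 72 had risen early, and at 6 h 20 rose and 28 fell, a split that became 36 and 19 with library totals as the scale and 1 and 43 with spike-in totals. Ndufb2 stood at 33.1 and 33.4 CPM at 6 h, against 20.6 and 20.7 CPM at 3 h (0.69 ± 0.09, adjusted p = 1.52e-10) and Ndufv2 at 102 and 103 CPM at 6 h, against 189.7 and 194 CPM at 3 h (-0.90 ± 0.04, adjusted p = 1.27e-39), both subunits of complex I, while Ndufa4 rose by 0.37 and Ndufs4 fell by 0.90. Of the 13 genes of the mitochondrial genome, which has its own polymerase, 7 rose and 0 fell, with a median of 0.18 that became -0.13 with spike-in totals, where 0 rose and 1 fell. mt-Co1 stood at 23034 and 23183 CPM at 6 h, against 17869 and 17885 CPM at 3 h (0.37 ± 0.01, adjusted p = 1.53e-49). For mt-Co2, at 0.41 ± 0.16 (adjusted p = 0.0227), the call was lost without WT 3 h library 1 (adjusted p = 0.122), without WT 6 h library 1 (adjusted p = 0.494) and in DESeq2 (adjusted p = 0.427).

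p53 targets rose more often than they fell with the standard scaling, but not with spike-in totals. p53 is a transcription factor that is known to accumulate after DNA damage and when ribosome production is disturbed. Of 37 tested targets, 25 had risen early, 24 rose and 6 fell in the window, and 16 rose in both steps. The window median was 0.25, against 0.68 early, and became -0.06 with spike-in totals, where 8 rose and 10 fell. Psrc1 stood at 4.61 and 5.18 CPM at 6 h, against 2.53 and 2.05 CPM at 3 h (1.10 ± 0.24, adjusted p = 4.79e-05), and the long noncoding RNA Trp53cor1 at 19.5 and 20.5 CPM at 6 h, against 10.3 and 9.17 CPM at 3 h (1.04 ± 0.12, adjusted p = 2.37e-12). Cdkn1a, which encodes the cell cycle inhibitor p21 and is named after its values were seen, stood at 862 and 848 CPM at 6 h, against 819.8 and 817 CPM at 3 h, a change of 0.06 ± 0.02 (adjusted p = 0.00285) that became -0.25 with spike-in totals and was not called in fits of the WT libraries alone (adjusted p = 0.282) or without WT 6 h library 1 (adjusted p = 0.0705). Bax, a pore-forming death protein, fell at 121 and 116 CPM at 6 h, against 164 and 163 CPM at 3 h (-0.46 ± 0.04, adjusted p = 2.71e-19), as did Apaf1, the platform of the apoptosome (-0.49 ± 0.06, adjusted p = 1.11e-12). Trp53cor1 overlaps another listed transcript, AC167363.1, and counting ignored strand, so their reads cannot be told apart.

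Of 17 genes of the BCL2 family, which decides between survival and death, 6 rose and 6 fell, with a median of 0.01 that became -0.30 with spike-in totals, where 2 rose and 8 fell. Promoters of death and of survival stood on both sides. The largest rises were of the death genes Pmaip1 (NOXA) at 281 and 289 CPM at 6 h, against 159 and 151 CPM at 3 h (0.88 ± 0.03, adjusted p = 7.11e-44) and Bcl2l11 (BIM) at 96.7 and 93.2 CPM at 6 h, against 59.9 and 61.7 CPM at 3 h (0.64 ± 0.05, adjusted p = 1.55e-20). Both had been called higher at 3 h as well. The largest falls were of the survival genes Bcl2 at 22.2 and 21.6 CPM at 6 h, against 46.4 and 45.3 CPM at 3 h (-1.07 ± 0.07, adjusted p = 4.44e-26) and Bcl2a1b at 6.22 and 5.91 CPM at 6 h, against 11.7 and 11.6 CPM at 3 h (-0.94 ± 0.15, adjusted p = 4.85e-08). The death genes Bak1 (-0.60), Bax (-0.46) and Bid (-0.44) fell too, and the survival gene Bcl2l2 rose by 0.55. Bcl2 spans 176097 bases and its 0 h level had been 196 and 199 CPM. Bcl2a1b has near-identical copies, so its share of reads is uncertain.

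Cell cycle lists were mixed. Of 43 mitotic genes, 24 rose and 11 fell, with a window median of 0.23 that became -0.08 with spike-in totals, where 11 rose and 14 fell, and 14 early falls turned. Cdc25c, the phosphatase that opens mitosis, stood at 36.6 and 34.98 CPM at 6 h, against 12.2 and 12.5 CPM at 3 h (1.53 ± 0.10, adjusted p = 8.52e-27), with no early call. Sgo1, the protector of sister chromatids, went through 37.5 and 41.6 CPM at 0 h, 19.5 and 19.1 at 3 h, 37.7 and 41.01 at 6 h and 48.97 and 46.9 at 9 h, so that it dipped at 3 h and was back at its start by 6 h. Top2a, the topoisomerase of condensing chromosomes, fell at 167 and 168 CPM at 6 h, against 349 and 345 CPM at 3 h (-1.05 ± 0.03, adjusted p = 3.83e-54), as did the kinesin Kif4 (-0.66). Of 48 replication and G1/S genes, 21 fell and 10 rose, with a median of -0.17, a split that became 17 and 16 with library totals and 32 and 1 with spike-in totals. Both DNA primase subunits were called, in opposite directions. The large subunit Prim2 stood at 2.88 and 3.60 CPM at 6 h, against 12.4 and 11.03 CPM at 3 h (-1.85 ± 0.16, adjusted p = 2.4e-18), and the small subunit Prim1 at 72.8 and 70.3 CPM at 6 h, against 43.6 and 39.4 CPM at 3 h (0.79 ± 0.06, adjusted p = 1.61e-20). Pola1, the catalytic subunit of the same complex, spans 327389 bases and stood at 25.6 and 28.8 CPM at 6 h, against 74.4 and 66.2 CPM at 3 h (-1.37 ± 0.07, adjusted p = 1.28e-32), while E2f2 rose by 0.61. Of 18 G1 cyclins, kinases and inhibitors, 8 fell and 5 rose, with a median of -0.06. The inhibitors Cdkn2c at 102 and 102 CPM at 6 h, against 48.7 and 45.7 CPM at 3 h (1.11 ± 0.05, adjusted p = 4.85e-37) and Cdkn1b at 98.7 and 97.2 CPM at 6 h, against 54.6 and 56.05 CPM at 3 h (0.82 ± 0.05, adjusted p = 3.27e-27) led the rises, and Rb1 (-1.06 ± 0.07, adjusted p = 1.58e-26) and Cdk6 (-0.70 ± 0.04, adjusted p = 1.3e-30) led the falls.

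Replication-dependent histone mRNAs normally end in a stem-loop with no poly(A) tail, and the libraries were made from polyadenylated RNA. Of 22 tested among 29 matched, 14 rose and 2 fell, with a median of 1.17, which stayed at 0.88 with spike-in totals. Most stood at a few CPM, and a low gene could pass the filter through a group in which it was high, so the count is a description. The 2 that fell were linker histone genes, and the second, H1f0, is known to be made outside replication from a polyadenylated mRNA, so the list's name does not hold for it. They were Hist1h1c, at 47.05 and 41.98 CPM at 6 h, against 133 and 125 CPM at 3 h (-1.54 ± 0.06, adjusted p = 1.4e-42), and H1f0, at 73.6 and 81.6 CPM at 6 h, against 158 and 153 CPM at 3 h (-0.999 ± 0.04, adjusted p = 1.09e-38). Hist1h4c stood at 0.833 and 0.366 CPM at 6 h, against 0.0684 and 0.128 CPM at 3 h, from 3 counts in all at 3 h, and its call (adjusted p = 0.0159) was lost without either 3 h library (0.112 and 0.0541) and without WT 6 h library 1 (0.217). Near-identical histone copies can share or lose reads.

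Genes of IL-3 signalling moved both ways, and more progenitor transcription factors fell than rose. Of 25 genes of IL-3, JAK2, STAT5 and their targets, 11 rose and 8 fell, with a median of 0.01 that became -0.30 with spike-in totals, where 4 rose and 12 fell. Il2ra, a STAT5 target and receptor chain, stood at 115 and 115 CPM at 6 h, against 283 and 282 CPM at 3 h (-1.30 ± 0.04, adjusted p = 6.75e-56), and Csf2rb, the shared beta chain of the IL-3 receptor, at 175 and 173 CPM at 6 h, against 301 and 295 CPM at 3 h (-0.77 ± 0.03, adjusted p = 1.86e-41). Of 26 tested transcription factors of blood progenitors, 14 fell and 3 rose, with a median of -0.37, and 12 falls went on from the first 3 h. With spike-in totals 16 fell and 0 rose. Meis1, a homeobox factor of stem cells and progenitors, stood at 1.54 and 1.71 CPM at 6 h, against 3.97 and 4.23 CPM at 3 h (-1.33 ± 0.26, adjusted p = 4.28e-06). Cebpb was the only member that turned from higher to lower, at 21.8 and 16.3 CPM at 6 h, against 42.1 and 41.4 CPM at 3 h (-1.14 ± 0.10, adjusted p = 2.76e-18). The 3 that rose included Cebpa, a factor of myeloid commitment, at 38.1 and 36.99 CPM at 6 h, against 30.3 and 28.8 CPM at 3 h (0.35 ± 0.09, adjusted p = 0.000609), and Gfi1, a repressor of the same lineage, at 41.5 and 44.97 CPM at 6 h, against 28.6 and 29.3 CPM at 3 h (0.58 ± 0.08, adjusted p = 1.25e-10).

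Chromatin regulators, often long genes, had fallen early in 35 of 40 cases, with a median of -1.59. In the window 14 fell and 12 rose, a split that became 12 and 19 with library totals, and of the early falls 14 went on, 10 turned and 11 stopped. Smarca2, an ATPase of the BAF remodelling complex that spans 173273 bases, stood at 11.9 and 12.7 CPM at 6 h, against 40.3 and 37.6 CPM at 3 h (-1.66 ± 0.09, adjusted p = 8.2e-32), and its partner Smarcc1 at 52.7 and 54.4 CPM at 6 h, against 109 and 115 CPM at 3 h (-1.06 ± 0.05, adjusted p = 2.94e-38). Kdm6b, a histone H3 lysine 27 demethylase of 15168 bases, turned and stood at 45.6 and 44.2 CPM at 6 h, against 21.5 and 22.9 CPM at 3 h (1.01 ± 0.07, adjusted p = 1.92e-23). Tet2, a dioxygenase of 5-methylcytosine named after its values were seen, turned as well, at 26.2 and 25.7 CPM at 6 h, against 14.7 and 12.2 CPM at 3 h (0.95 ± 0.10, adjusted p = 9.85e-14). Tet1 was called higher at 0.320 and 0.670 CPM at 6 h, against 0.137 and 0 CPM at 3 h, from 2 counts in all at 3 h, and lost the call without WT 3 h library 2 (adjusted p = 0.212) or WT 6 h library 2 (adjusted p = 0.195).

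RNA decay and RNA modification genes fell more often than they rose. Of 49 genes of the decay machinery, 23 fell and 11 rose, with a median of -0.16, a split that became 31 and 0 with spike-in totals. Parn, a deadenylase gene of 130211 bases, stood at 17.6 and 17.001 CPM at 6 h, against 46.04 and 42.1 CPM at 3 h (-1.35 ± 0.08, adjusted p = 1.03e-27), and Xrn2, the nuclear exonuclease, at 66.9 and 71.8 CPM at 6 h, against 148 and 156 CPM at 3 h (-1.13 ± 0.04, adjusted p = 7.67e-44). Upf3b, of nonsense-mediated decay, rose by 0.58 and the exosome subunit Exosc9 by 0.47. Of 36 RNA modification enzymes, 19 fell and 7 rose, with a median of -0.17, a split that became 25 and 0 with spike-in totals. Fto, an m6A demethylase gene of 354915 bases, went through 93.7 and 88.9 CPM at 0 h, 69.9 and 74.6 at 3 h, 26.98 and 24.7 at 6 h and 5.54 and 6.45 at 9 h, a window change of -1.48 ± 0.07 (adjusted p = 1.52e-36) and a larger one of -2.11 from 6 h to 9 h. Trmt61a, of the tRNA m1A methyltransferase, stood at 7.05 and 7.13 CPM at 6 h, against 19.7 and 17.5 CPM at 3 h (-1.39 ± 0.13, adjusted p = 7.95e-17), and Cbll1 of the m6A writer complex rose by 0.54.

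Metabolic, iron and interferon genes had medians near that of all genes. Of 24 glycolysis genes, 12 fell and 8 rose, with a median of -0.04 and a split that became 8 and 11 with library totals and 14 and 0 with spike-in totals. The falls were led by the phosphofructokinases Pfkp at 218 and 208 CPM at 6 h, against 408 and 390.0 CPM at 3 h (-0.91 ± 0.03, adjusted p = 3.96e-52) and Pfkm (-0.69). Pfkfb4 rose by 0.40, and the Aldoc rise of 0.64 was not called in DESeq2 (adjusted p = 0.0604) or without WT 6 h library 2 (adjusted p = 0.32). Of 16 hypoxia genes, 6 rose and 5 fell (1 and 8 with spike-in totals), with a median of 0.01, Ankrd37 at 26.7 and 27.8 CPM at 6 h, against 12.6 and 15.2 CPM at 3 h (0.97 ± 0.10, adjusted p = 1.45e-14), Egln1 at a change of -0.76 and Car9 at one of -0.75, whose call was lost without WT 6 h library 1 (adjusted p = 0.0655). Of 27 genes of cholesterol synthesis and uptake, 8 rose and 8 fell, with a median of 0.02, or 0 and 12 with spike-in totals. Sqle, squalene epoxidase, stood at 47.2 and 49.5 CPM at 6 h, against 121 and 112 CPM at 3 h (-1.26 ± 0.05, adjusted p = 2.33e-40), and Srebf2, the master regulator, at 103 and 95.2 CPM at 6 h, against 186 and 183 CPM at 3 h (-0.90 ± 0.04, adjusted p = 1.54e-39), while Tm7sf2 and Scap rose by 0.43 and 0.37. Of 14 iron genes, 8 fell and 3 rose, with a median of -0.10 and a split that became 4 and 5 with library totals and 9 and 1 with spike-in totals. Steap3, an iron reductase, rose by 0.70, Pcbp1 and Pcbp2 fell by 0.62 and 0.69, and Fth1, the ferritin heavy chain, changed by 0.07, or by -0.24 with spike-in totals. Of 46 interferon-stimulated genes, 17 rose and 8 fell, with a median of 0.04, but 5 rose and 12 fell with spike-in totals. Oas1b stood at 33.6 and 33.8 CPM at 6 h, against 15.5 and 14.9 CPM at 3 h (1.15 ± 0.09, adjusted p = 1.9e-21), Parp9 changed by -0.69, and Ifit1 by -1.50, whose call was lost without WT 3 h library 1 (adjusted p = 0.0785). Adar changed by 0.27, or by -0.04 with spike-in totals. Oas and Ifit genes have near-identical copies.

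**Figure D4:**
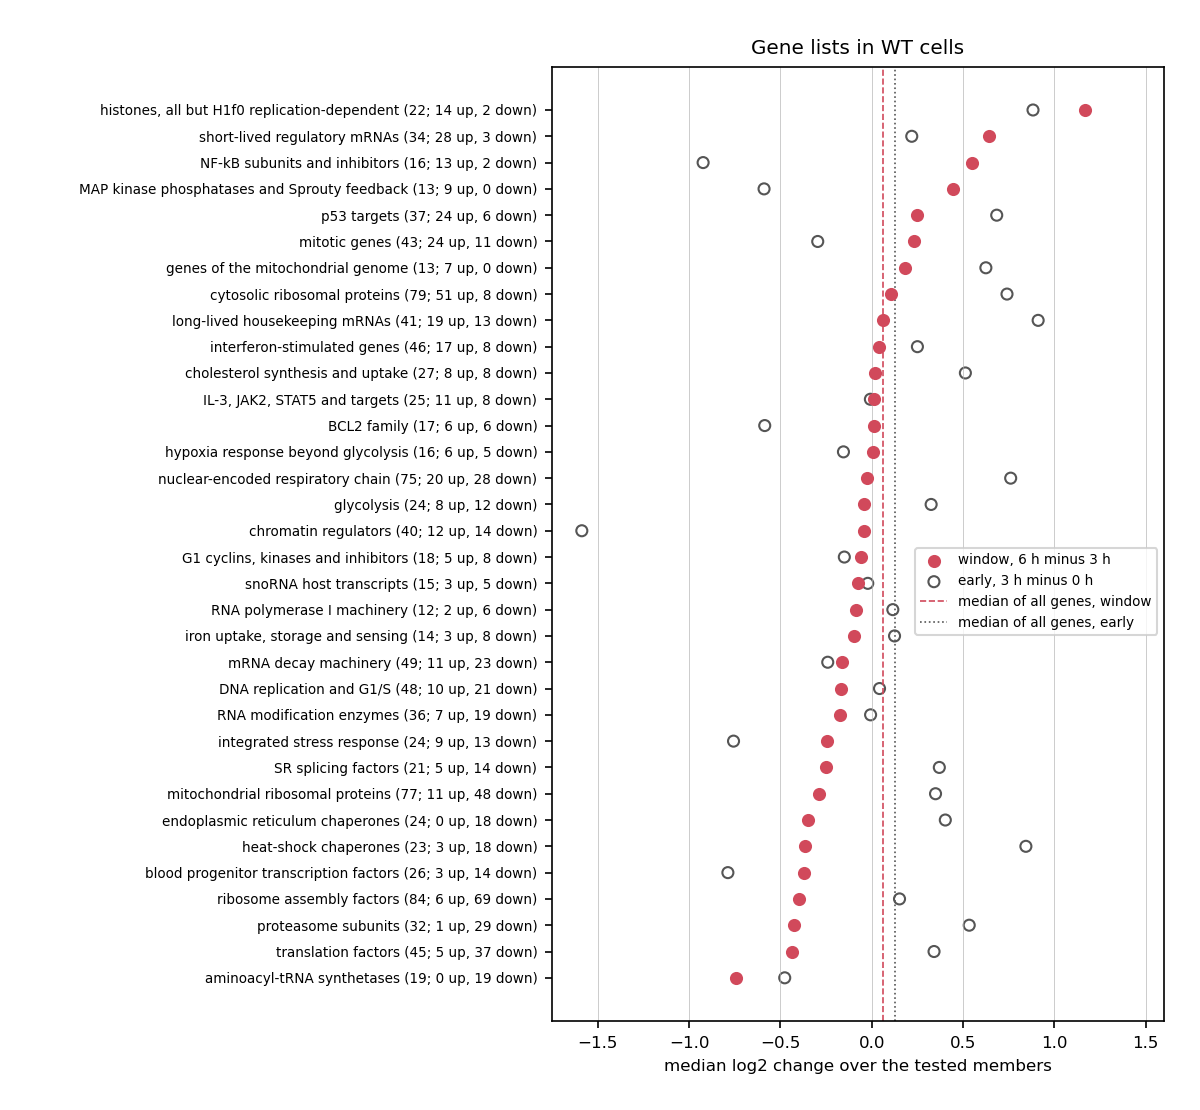
Median log2 change over the tested members of 34 gene lists in WT, with filled points for the window (6 h minus 3 h), open points for the early change (3 h minus 0 h) and dashed and dotted lines for the medians of all genes (0.06 and 0.13). The synthetases have the lowest window median (-0.74) and the histones the highest (1.17), and the proteasome and NF-kB lists sit on opposite sides of 0 in the 2 steps.

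The plot of list medians places the window beside the early change for each list. Proteasome subunits, translation factors, heat-shock chaperones and SR factors were above 0 early and below 0 in the window, and NF-kB and MAP kinase feedback genes the reverse. With spike-in totals these window medians kept their sign, whereas those of p53 targets, mitotic genes, cytosolic ribosomal proteins and the mitochondrial genome became negative, as did every other positive list median except those of the short-lived regulatory and histone lists. Early list medians were not computed on that scale, which moved the early changes of all genes by a median of -0.50. The early medians of translation factors (0.34) and SR factors (0.37) were smaller than this shift, and that of proteasome subunits (0.53) was close to it. Whether these lists turned on that scale was thus not tested. With library totals as the scale, which moved the median of all genes by 0.10, the slightly negative medians of polymerase I, small nucleolar RNA host, chromatin, glycolysis, respiratory chain, iron and G1 genes became slightly positive. The lists were chosen with earlier results of these data known, so the counts describe them and do not set them apart from other genes.

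Finally, the WT window was set against the same window of the clones, which share no library with it. The question was where a cell with intact Nat10 moved differently from 3 h to 6 h. The clones called similar numbers of genes, 8762 in KO1 (54.2%) and 9101 in KO2 (56.3%). Across the 16167 genes, which share normalization but no library, the WT change correlated with that of KO1 at r = 0.65 and with that of KO2 at r = 0.67. The change was more positive in WT than in KO1 for 1138 genes (7.04%) and more negative for 1099 (6.8%). Against KO2 the counts were 936 (5.79%) and 670 (4.14%). Genes that differed from both clones in 1 direction numbered 516 above (3.19%) and 479 below (2.96%). Early falls that went on in WT were mostly lower in the clones too, with 1875 of 2200 called lower in the window of both, as were 1115 of the 1480 turned rises. Of the 1213 turned falls, 749 were called higher in both clones, as were 1608 of the 2303 rises that went on. Of changes that started in the WT window, 469 of 665 falls and 486 of 952 rises were called the same way in both clones. The share of all genes called in 1 direction in both clones was not computed.

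The largest differences from both clones were at genes under 45 CPM. Cebpb fell in WT, at 21.8 and 16.3 CPM at 6 h, against 42.1 and 41.4 CPM at 3 h, while it stood at 20.5 ± 0.993 CPM at 6 h, against 13.5 ± 1.68 CPM at 3 h in KO1, and at 11.4 ± 1.36 CPM at 6 h, against 10.3 ± 0.932 CPM at 3 h in KO2. The WT change minus that of KO1 was -1.74 ± 0.15 (adjusted p = 2.05e-16), and minus that of KO2 -1.29 ± 0.17 (adjusted p = 3.84e-09). The clones thus lay far below WT at 3 h and nearer to it at 6 h. Stom, an integral membrane protein gene, rose by 0.70 in WT and by 1.85 and 1.61 in KO1 and KO2. Evpl, a cornified envelope gene, rose by 0.96 in WT and by 2.09 and 2.05 in KO1 and KO2, with means of 4.50 CPM at 3 h in WT, 3.26 in KO1 and 3.23 in KO2. Cd200r3, a receptor of basophils and mast cells, changed by 0.29 in WT (adjusted p = 0.109) and rose by 1.32 and 1.20 in KO1 and KO2. On the other side, Nfe2l3, a transcription factor gene, changed by 0.22 in WT (adjusted p = 0.277) and by -0.89 and -0.81 in KO1 and KO2. Taf3, of the TFIID complex, rose by 0.73 in WT, against -0.18 and -0.14 in KO1 and KO2, neither called. Clec2g and Hist1h2bg were the other 2, with differences from KO1 of 0.88 and 0.86 and from KO2 of 0.97 and 0.92.

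Several gene lists moved by unequal amounts in WT and the clones on the CPM scale. Over all genes, 7.04% were above and 6.8% below KO1, and 5.79% above and 4.14% below KO2. Of 32 proteasome subunits, the WT change was below that of KO1 for 20 and of KO2 for 7, and above it for 0 and 1, with window medians of -0.43 in WT, -0.23 in KO1 and -0.34 in KO2. Of 27 cholesterol genes, 13 were below KO1 and 13 below KO2, with 0 above either. Sqle was the clearest, with a change of -1.26 in WT and -0.58 and -0.58 in KO1 and KO2. Of 24 glycolysis genes, 16 were below KO1 and 4 below KO2. SR factors were below KO1 for 10 of 21 and below KO2 for 11, though all 3 window medians lay close together at -0.25 in WT, -0.30 in KO1 and -0.29 in KO2. G1/S genes were below KO1 for 14 of 48 and below KO2 for 13, and mitotic genes for 9 and 16 of 43, with mitotic medians of 0.23 in WT, 0.39 in KO1 and 0.40 in KO2. Ribosome assembly factors went the other way, above KO1 for 22 and above KO2 for 34 of 84, with medians of -0.40 in WT, -0.49 in KO1 and -0.56 in KO2. Cytosolic ribosomal proteins were above KO2 for 33 of 79 and above KO1 for 4. Genes of the mitochondrial genome were above KO1 for 8 and KO2 for 7 of 13, but their medians were 0.18 in WT, -0.15 in KO1 and 0.30 in KO2, so count and median differ in sense for KO2. Spike-in RNA, in CPM of gene counts, ran from 6.92 to 15.9 in WT libraries and from 240.2 to 844 in the clones. When the spike-in totals of each library set the scale, 20 and 43 genes were called above KO1 and KO2, and 21 and 4 below. With spike-in totals pooled per group, 1140 were above and 1090 below KO1, and 4099 above and 207 below KO2. The counts against the clones thus depend on how the spike-in counts are used, which are few in the WT libraries only. The labels give equal amounts of spike-in RNA, and why its share differed between WT and the clones was not tested. List counts against the clones were not computed on these scales.

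**Figure D5:**
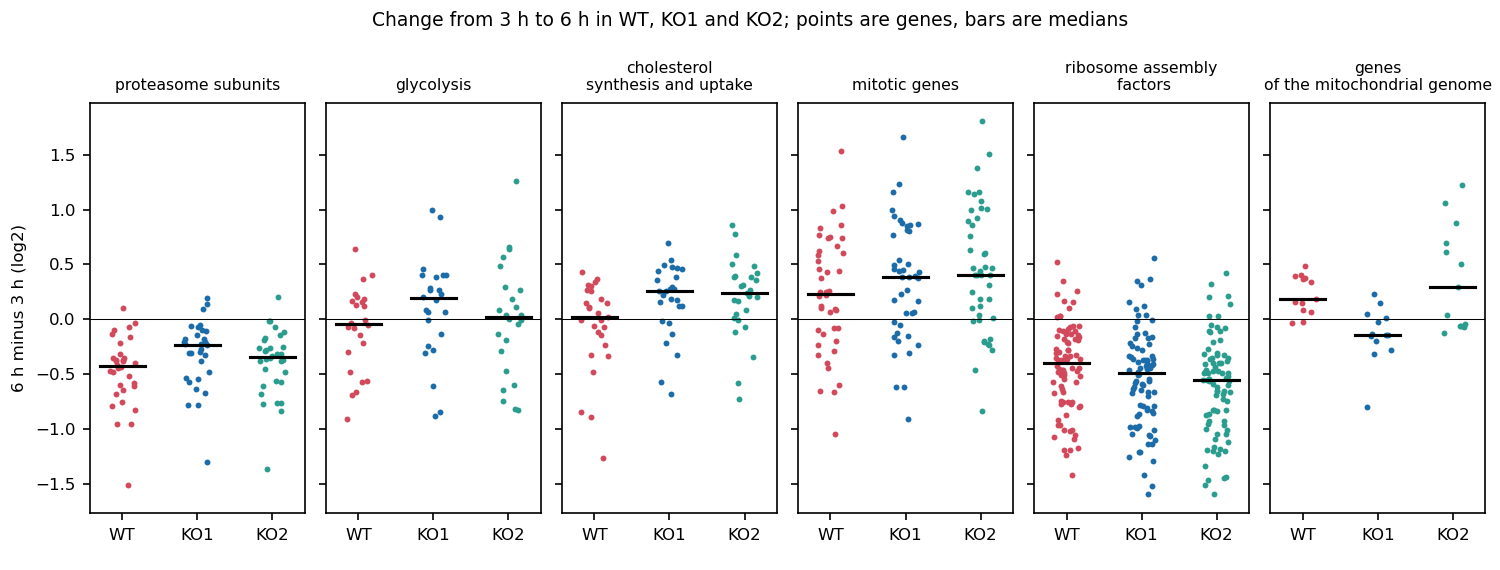
Change from 3 h to 6 h (log2) of single genes in WT, KO1 and KO2 for 6 gene lists, with points for genes and bars for list medians. Proteasome medians are -0.43 in WT, -0.23 in KO1 and -0.34 in KO2, and ribosome assembly medians are -0.40, -0.49 and -0.56.

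The plot of WT and clone windows shows that the genes of WT, KO1 and KO2 overlapped in range within all 6 lists.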

How the data were processed

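RNA was sequenced in 24 libraries, WT, KO1 and KO2 at 0, 3, 6 and 9 h with 2 libraries each. The deposited values are raw counts per gene, which the authors made, per the file headers, with featureCounts 1.6.3 on paired-end reads without strand, against build GRCm39 and Ensembl release 105 with the ERCC sequences. STAR and DESeq2 are also named in the submitters' processing notes, with versions not given in the sources used here. Since a directional kit was counted without strand, overlapping, antisense and near-identical genes may share reads. The tables had 0 entries that name no gene, 0 columns of single libraries were left out, and 52081 of 55414 identifiers had a symbol.

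After removal of the 92 spike-in transcripts, genes were filtered with a minimum count of 10, scaled by TMM and fitted with edgeR 4.0.16 (R 4.3.3) as 12 groups over all 24 libraries, with contrasts for the window, the first 3 h, their difference and the WT window minus each clone window. Adjusted p-values are Benjamini-Hochberg values over all genes. CPM are gene counts over TMM-scaled library totals. The scripts were tested on simulated data. Genes were named by 1 rule among established symbols whose libraries did not overlap: the 8 largest rises and falls at 5 CPM or more, 3 genes per class and direction (for stopped genes, within 0.1 of 0 on the log2 scale), up to 2 called members each way per list with no CPM minimum, and 4 genes each way against the clones. The comparison, members and 34 lists were chosen with earlier results of these data known. Alternatives were DESeq2 1.42.0, its size factors, library totals, spike-in totals, filters, WT libraries only, a replicate block, an adjusted p threshold of 0.01, single libraries left out, and no shared 3 h library.

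In the RefSeq promoter table of GRCm38.p6, whose build differs from that of the counts, 10 motifs, chosen with the list results known, were searched on both strands in the 250 bases before each start: GGNNTTNCC for NF-kB, TGATGNAA for ATF4 with C/EBP, TTTGAA for the CHR element, CCAAT for the CCAAT box, CACGTG for the E-box, TGACGTCA for the cAMP response element and TGACG for its core (contained in it), TGANTCA for AP-1, TATAAA for the TATA box and CCGGAAGT for ETS factors. For a gene with more than 1 listed start, the first window with a match was printed.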

Additional observations from a re-analysis of the deposited data

Results flagged for a closer look

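The change from 3 h to 6 h differed between WT and both clones, by a test of the difference itself, for the 8 genes named against the clones. The WT change minus that of KO1, and then that of KO2, was -1.74 and -1.29 on the log2 scale for Cebpb, -1.15 and -0.91 for Stom, -1.13 and -1.09 for Evpl and -1.04 and -0.91 for Cd200r3. It was 1.11 and 1.03 for Nfe2l3, 0.90 and 0.87 for Taf3, 0.88 and 0.97 for Clec2g and 0.86 and 0.92 for Hist1h2bg. In all, 1138 genes were higher and 1099 lower in the WT window than in that of KO1, 936 higher and 670 lower than in that of KO2, and 516 higher and 479 lower than in both. The differences from KO1 and from KO2 use the same WT libraries, so they are not independent.

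The window and the first 3 h of the same WT cells differed for 4022 genes in the positive and 5322 in the negative direction, again by a test of the difference, in which both steps use the 3 h libraries.

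Spike-in RNA, which was used only as an alternative scale, gave 414 counts in the WT libraries at 6 h and 318 at 3 h. What moved with this difference was not tested.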

How the results depend on the processing

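Of 24 counts compared across settings, none moved by over 1.5 times under DESeq2 size factors, no filter, the replicate block or the fits that left out 1 library each, nor did any of the 20 counts that WT libraries alone can give. With DESeq2, 102 early rises turned by at least 1.5-fold in both steps, and 642 and 541 genes were above KO1 and KO2. With library totals, 942 early rises turned, 78 of them by that fold. With a mean of at least 5 CPM asked, which tests fewer genes, 1308 genes were at least 1.5-fold higher, 914 early rises stopped, 149 early falls and 169 early rises were not placed, and 429 genes started lower and 530 higher. By 1.5-fold in both steps, 552 rises then went on and 86 turned. With spike-in totals, 1450 genes were higher, and by 1.5-fold 1009 higher and 3809 lower. Early falls then went on for 3805 genes, turned for 412 and were not placed for 1217, early rises went on for 516 and turned for 474, and 1537 genes started lower and 522 higher. By 1.5-fold in both steps, 2168 falls and 355 rises went on and 195 falls turned. The window was then more negative than the first 3 h for 3048 genes, and 20 and 21 genes were above and below KO1, and 43 and 4 above and below KO2. With spike-in totals pooled per group, an alternative chosen after seeing the data, 2071 genes were higher and 7015 lower, by 1.5-fold 1087 and 3818. Early falls went on for 4912 genes and turned for 796, early rises went on for 735, stopped for 1004 and were not placed for 532, and 540 genes started higher. By 1.5-fold in both steps, 2167 falls and 389 rises went on and 216 falls turned. Against KO2, 4099 genes were above and 207 below, while the counts against KO1, 1140 above and 1090 below, stayed near those of the main fit. The cause of these shifts was not tested beyond the change of scale.

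With spike-in totals and with pooled totals, the window change reversed for Adar (-0.041 and -0.027), Dancr (-0.050 and -0.041), Ddit4 (-0.081 and -0.072), Eif5 (-0.15 and -0.14), Fth1 (-0.24 and -0.22), Psmd2 (-0.20 and -0.19), Rps27 (-0.044 and -0.035), Rrn3 (-0.19 and -0.17), Snhg20 (-0.16 and -0.15), Atf4 (-0.13 and -0.12) and Cdkn1a (-0.25 and -0.23), and with pooled totals also for Aff1 (-0.29) and Olfr1250 (-0.21). Leaving out, 1 at a time, each WT library of 0, 3 and 6 h and each clone library of 3 and 6 h (the clone libraries were added after seeing the data) gave 3720 to 4618 genes higher and 3957 to 4384 lower in the window, 1945 to 2193 falls and 1837 to 2366 rises that went on, 969 to 1249 falls and 1294 to 1519 rises that turned, and 1330 to 1538 falls and 1470 to 1873 rises that stopped. Above KO1 it gave 794 to 1201 genes and below it 856 to 1128, above KO2 666 to 930 and below it 495 to 664. Libraries with the same replicate number did not deviate together (r of deviations from group means between -0.01 and 0.06 over 10254 genes), so the numbers do not pair them, and with the replicate block the window held 4441 higher and 4355 lower genes. With spike-in totals, 27 of the 174 named genes kept their sign but lost their call, among them Rplp0, mt-Co1, B2m and Nfkbia. With pooled totals 13 did. Spike-in counts of 145 to 217 per library limit any statement on total RNA, and groups of 2 libraries limit the estimate of spread.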
